A study of Mus musculus with 15 samples.

Results

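The 10 antiviral effector genes described here, Mx1, Mx2, Rsad2, Cmpk2, Isg15, Isg20, Bst2, Eif2ak2, Adar and Samhd1, encode proteins that block steps of viral replication or, in the case of Adar, edit double-stranded RNA. They were chosen by name, with earlier results of these data known, and make up 10 of the 21939 genes compared. Shares over all genes therefore stand beside their counts as description only. Each was examined over its gene body plus 5 kb upstream, called its window, in bone marrow-derived macrophages (BMDMs). CUT&RUN, an assay that cuts and sequences the DNA lying under an antibody-bound chromatin protein, had been run for HA-tagged histone H3.3, for acetylation of histone H3 lysine 27 (H3K27ac) and for trimethylation of lysine 36 (H3K36me3). The lists of called regions from 10 of the 15 samples were used, with 2 libraries in each of 5 groups, and the 5 IgG samples served only as the authors' background.

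WT cells came from H3f3a fl/fl H3f3b fl/fl mice without Cre, and H3.3cKO (cKO) cells from mice of the same floxed genotype that also carried LysM cre/cre, on a C57BL/6 background. LysM Cre is driven by the Lyz2 gene and acts in myeloid cells, and WT libraries carry no Cre, so Cre and loss of H3.3 cannot be told apart here. Per the study, H3f3b was deleted in full in some cultures and in part in others. The H3.3-HA libraries came from another genotype, knock-in mice in which H3f3b, one of the pair of H3.3 genes, carries the tag, so H3.3 made from H3f3a was not seen. The mice were young adults of both sexes, the labels name no treatment, and all cultures were grown in L929 conditioned medium for 6 to 8 days. Replicates were labelled as biological, with 2 per group, and in such bulk samples more cells carrying a mark and more of it per cell cannot be told apart.

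Most of these genes are switched on by type I interferon, which acts through its receptor, the kinases JAK1 and TYK2, and the factor ISGF3. ISGF3 binds the interferon-stimulated response element (ISRE), and the gamma-activated sequence (GAS) is an element of interferon gamma responses. H3K27ac marks active start sites and enhancers, H3K36me3 is laid down along the bodies of transcribed genes, and H3.3 is the H3 variant placed outside DNA replication.

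At 9 of the 10 genes, H3K27ac regions covered more of the window in both cKO libraries than in both WT libraries, and at 7 of the 10 so did H3K36me3 regions. Over all 21939 genes the same order was found at 10.1% for H3K27ac and 4.29% for H3K36me3, and the opposite order, cKO below WT, at 22.3% and 20.6%. None of the 10 genes showed the opposite order for either mark. Among genes with a region in at least 1 WT and 1 cKO library, cKO was higher at 16.4% of 10749 genes for H3K27ac and at 7.44% of 10685 genes for H3K36me3, and lower at 40.9% and 39.0%. All 10 genes had H3K27ac regions in both genotypes, and 8 had H3K36me3 regions in both. Isg15 and Isg20, both among the 7 higher for H3K36me3, had no WT region of that mark. The 7 are therefore not a like count beside the 7.44%. An exact permutation test of 2 against 2 libraries cannot give a two-sided p below 0.333, so no single gene could pass 0.05, and each gene whose groups did not overlap had p = 0.333.

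The lists hold positions without a height, so all values are lengths of called regions. Libraries held 5365319 to 29988098 tags and 35018 to 61764 regions. For H3K36me3 both cKO libraries were deeper, with 23782914 and 23503055 tags against 15086387 and 14027132 in WT. For H3K27ac the cKO libraries held 29988098 and 25560110 tags, and the WT libraries 28366343 and 16444864. Whether these tag numbers affect the genotype differences in called length or in the joining of regions was not tested. Whole-genome lists were shorter in cKO for H3K27ac, covering 46.2 and 62.0 Mb against 89.6 and 74.8 Mb in WT. The cKO H3K36me3 replicate 1 library stood apart, with 19.3% of its tags in regions and 90.7 Mb covered, against 46.5% to 50.2% and 163 to 170 Mb in the other libraries of that mark. Its part in the H3K36me3 results is given below by leaving it out. The targeted genes did not check the labels: H3K27ac covered 16.4% and 16.5% of the H3f3a body in WT and 20.8% and 26.9% in cKO, and 23.9% and 24.1% of the H3f3b body in WT and 55.4% and 73.6% in cKO. H3K36me3 covered 72.3% and 77.8% of the H3f3a body in WT and 67.9% and 73.0% in cKO. Of the H3f3b body it covered 10.7% and 14.2% in WT and 33.6% and 39.6% in cKO. WT and cKO below therefore mean the libraries labelled so. All 6 macrophage markers (Adgre1, Csf1r, Itgam, Cd68, Fcgr1 and Mertk) had H3K36me3 regions in all 4 libraries, with a summed covered percent of 370 to 396 in WT and 393 to 477 in cKO. For H3K27ac, 5 of the 6 had regions in all 4 libraries, with a summed covered percent of 123 to 158 in WT and 120 to 156 in cKO. Of the 6, Adgre1, Itgam and Mertk were lower in cKO, Cd68 was higher, the median difference was -3.56 points, and Mertk had no region in cKO replicate 1. None of the 3 T cell markers or the 3 neutrophil markers had an H3K36me3 region in any library, and of the 3 B cell markers only Ms4a1 had one, in cKO replicate 2. For H3K27ac, the T cell marker Cd3d had a region in both cKO libraries and in neither WT library, while Cd3e and Cd3g had none. Ms4a1 and the neutrophil marker Elane had H3K27ac regions in all 4 libraries with overlapping groups, and Ly6g had none. The part of other cell types in the results was not tested.

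Promoter sequences were taken from RefSeq (GRCm38.p6), 250 bases before to 50 after each annotated start, and 8 of the 10 genes matched, with 12 promoters. Mx1 and Mx2 had no entry. The ISRE core was searched as GAAANNGAAA on both strands and the GAS element as TTCNNNGAA, which reads the same on both strands. They were found in 3.44% and 8.30% of all 32851 promoters. Of the 8 genes, Isg15, Bst2, Rsad2 and Eif2ak2 held an ISRE core, and Isg20, Bst2, Eif2ak2, Adar and Samhd1 a GAS element, while Cmpk2 held neither in this window. Counted by promoter, as those shares are, 4 of the 12 held an ISRE core and 5 a GAS element. The ISRE stretches are shown 5′ to 3′ on the strand of the gene, with the matched letters in capitals. They are printed because H3K27ac regions covered the letters at Bst2, Rsad2 and Eif2ak2 in both cKO libraries but not in both WT libraries, and those at Isg15 in all 4. They lie at chr4:156200826-156200945 (Isg15), chr8:71537535-71537654 (Bst2), chr12:26456508-26456627 (Rsad2) and chr17:78882535-78882564 (Eif2ak2), all on the minus strand of mm10.
Isg15: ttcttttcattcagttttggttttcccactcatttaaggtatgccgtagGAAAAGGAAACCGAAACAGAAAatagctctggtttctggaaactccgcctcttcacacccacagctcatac
Bst2: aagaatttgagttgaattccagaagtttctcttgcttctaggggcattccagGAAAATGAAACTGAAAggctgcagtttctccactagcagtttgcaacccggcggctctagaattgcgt
Rsad2: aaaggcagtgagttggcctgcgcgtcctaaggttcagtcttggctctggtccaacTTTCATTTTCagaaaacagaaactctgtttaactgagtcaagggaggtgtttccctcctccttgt
Eif2ak2: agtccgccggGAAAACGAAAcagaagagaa

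The 3 overlapping Isg15 matches begin 78, 72 and 66 bases upstream of the start and lay whole inside an H3K27ac region in all 4 libraries. The 2 overlapping Bst2 matches begin 146 and 140 bases upstream of the GENCODE gene start, from which regions are measured here, and lay inside an H3K27ac region in both cKO libraries and whole in neither WT library. The WT replicate 1 region took in 5 of the 10 bases of the first match and 0 of the second, and WT replicate 2 took in 0 of either. The Rsad2 match, on the opposite strand, begins 120 bases upstream and was covered in 1 WT and in both cKO libraries. The Eif2ak2 match lies just past the start and was likewise covered in 1 WT and both cKO libraries. These matches describe the letters only, and binding was not measured.

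Rsad2 and Cmpk2 sit head to head on chromosome 12, with 12.8 kb between their starts. Rsad2 (26442746 to 26456452, minus strand) encodes viperin, a radical SAM enzyme that turns CTP into a chain terminator of viral RNA synthesis, and Cmpk2 (26469204 to 26479837, plus strand) encodes a mitochondrial nucleotide kinase. H3K27ac regions covered 17.7% and 10.3% of the Rsad2 window in WT and 37.8% and 54.5% in cKO (14.0% ± 5.18 and 46.2% ± 11.8, SD, n = 2 each), and the groups were well apart. At Cmpk2 they covered 3.20% and 4.95% in WT and 18.6% and 23.0% in cKO (4.08% ± 1.23 and 20.8% ± 3.15), so each cKO library had more than 3 times the value of either WT library. In the map of the locus, the cKO region over the Rsad2 start reached -932 bp in replicate 1 and -4807 bp in replicate 2. Over the Cmpk2 start the cKO regions reached only -388 and -465 bp, against -233 and -210 bp in WT. The other cKO H3K27ac regions between the starts were separate from these.

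**Figure D1:**
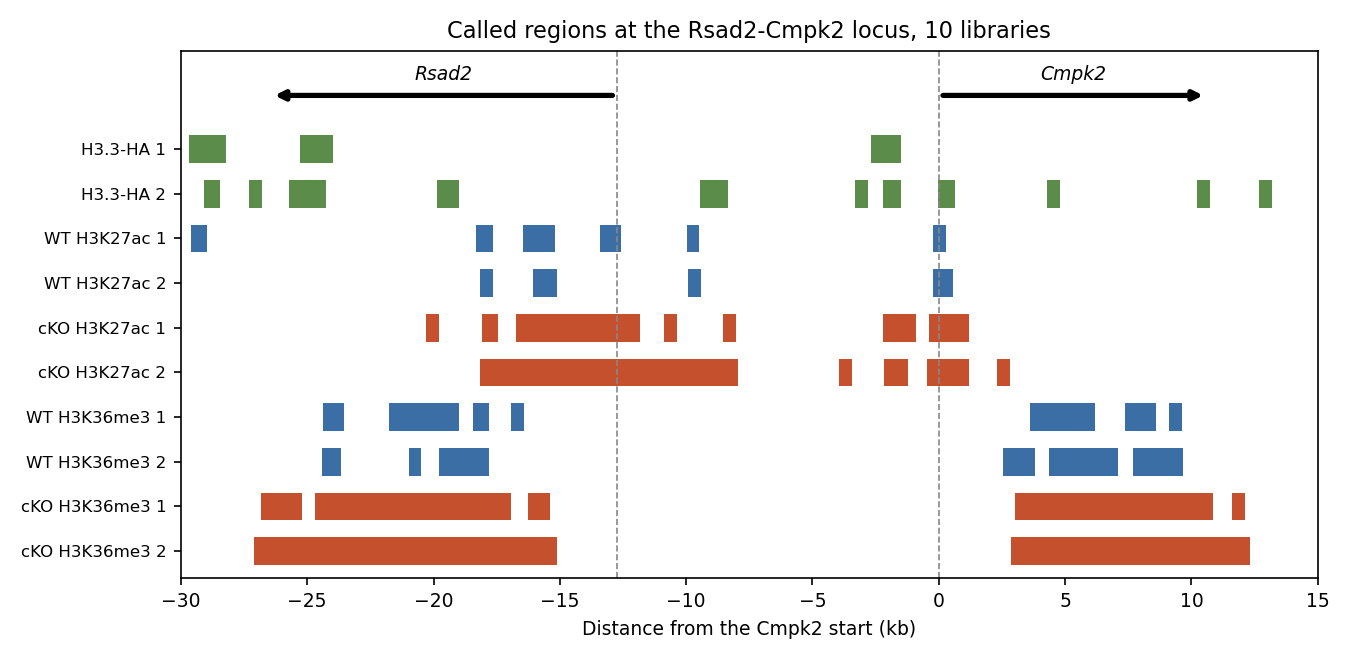
Regions called in each of the 10 libraries (rows) across Rsad2 and Cmpk2, with distance from the Cmpk2 start in kb on the x axis, arrows for the genes and dashed lines at their starts (green H3.3-HA, blue WT, red cKO). H3K27ac covered 28.6% and 52.7% of the interval between the starts in the cKO libraries against 7.13% and 5.58% in WT.

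The Rsad2 start itself was inside a WT H3K27ac region only in replicate 1, from -175 to 669 bp of the start, and WT replicate 2 had no region within 1 kb of it. In cKO replicate 1 a single region ran from -932 to 4000 bp and in cKO replicate 2 from -4807 to 5391 bp, a width of 10199 bp. The WT libraries had a pair of separate regions inside the gene, at about 2.4 and 4.9 kb from the start, that the cKO replicate 2 region took in, wholly or in part. At the Cmpk2 start, WT regions were 501 and 774 bp wide, and cKO regions 1577 and 1651 bp.

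Between the genes lay an H3K27ac region present in the 2 cKO libraries and missing from both WT libraries, called cKO-only here, at chr12:26466984-26468310, upstream of Cmpk2 from -2220 to -894 bp. Both H3.3-HA libraries called regions over it, and the 666 bases from -2180 to -1515 bp were called in both cKO H3K27ac and both H3.3-HA libraries. This stretch held no ISRE core and 1 GAS element. Windows of the same length at the centres of all 2995 such cKO-only H3K27ac regions of the genome held an ISRE core in 9.25% and a GAS element in 18.6%. The 200 bases around the match are shown on the plus strand at chr12:26467087-26467286, with the GAS letters in capitals, since this is the one cKO-only region between the genes.
Cmpk2 upstream region: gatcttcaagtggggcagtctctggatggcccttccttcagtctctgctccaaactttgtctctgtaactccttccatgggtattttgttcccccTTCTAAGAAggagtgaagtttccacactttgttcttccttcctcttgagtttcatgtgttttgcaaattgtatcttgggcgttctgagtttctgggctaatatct

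H3K36me3 lay in the bodies of both genes and in no library between the starts. At Rsad2 it covered 25.4% and 17.3% of the window in WT and 52.8% and 60.7% in cKO (21.3% ± 5.75 and 56.7% ± 5.59), a 2.66-fold ratio of means. The WT signal was called as 4 and 3 separate regions with a widest of 2.78 and 1.99 kb, whereas cKO replicate 2 had a single region of 12008 bp and cKO replicate 1 had 3 regions with a widest of 7.74 kb. At Cmpk2 the cover was 27.5% and 38.3% in WT and 48.8% and 49.6% in cKO (32.9% ± 7.67 and 49.2% ± 0.574). There 3 regions in each WT library faced 1 region in each cKO library, of 7.86 and 9.44 kb.

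Mx1 and Mx2 encode dynamin-like GTPases that trap incoming viral ribonucleoprotein, and Mx1 carries an inactivating deletion in most laboratory mouse strains. They lie head to head on chromosome 16, with 72.4 kb between their starts (Mx1 97447035 to 97462907, minus strand, and Mx2 97535308 to 97560900, plus strand, annotated as a polymorphic pseudogene). H3K27ac covered 21.7% and 15.6% of the Mx1 window in WT and 32.4% and 33.5% in cKO (18.7% ± 4.28 and 32.96% ± 0.745). At Mx2 it covered 10.3% and 10.5% in WT and 18.7% and 20.4% in cKO (10.4% ± 0.111 and 19.6% ± 1.15). Unlike at Rsad2, both Mx starts were inside a region in all 4 libraries.

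The region over the Mx1 start was 2921 and 2712 bp wide in WT and 5453 and 5055 bp in cKO, with most of the added length inside the gene, to 4490 and 3739 bp past the start against 2173 and 1953 bp. The Mx2 start region differed less, at 2654 and 2522 bp in WT and 3178 and 3131 bp in cKO. Instead, Mx2 held 3 intronic cKO-only regions, from 6589 to 7134, 14233 to 15027 and 18091 to 18600 bp past the start, and Mx1 held 1 from 5968 to 6780 bp, which also touched an exon. None of the 4 overlapped an H3.3-HA region in both libraries.

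H3K36me3 covered 58.7% and 47.9% of the Mx1 window in WT and 67.1% and 68.9% in cKO (53.3% ± 7.64 and 68.0% ± 1.28). Each WT library had 3 Mx1 regions, and each cKO library had 1 unbroken region, of 14.4 and 14.9 kb, which ran past the annotated end. The difference of 14.7 points was 9.30 without WT replicate 2. At Mx2 the mark covered most of the body in every library, with 71.2% and 68.7% in WT and 72.3% and 81.1% in cKO (69.9% ± 1.82 and 76.7% ± 6.22). That difference of 6.75 points fell to 2.35 without cKO replicate 2, so it rested mainly on 1 library.

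**Figure D2:**
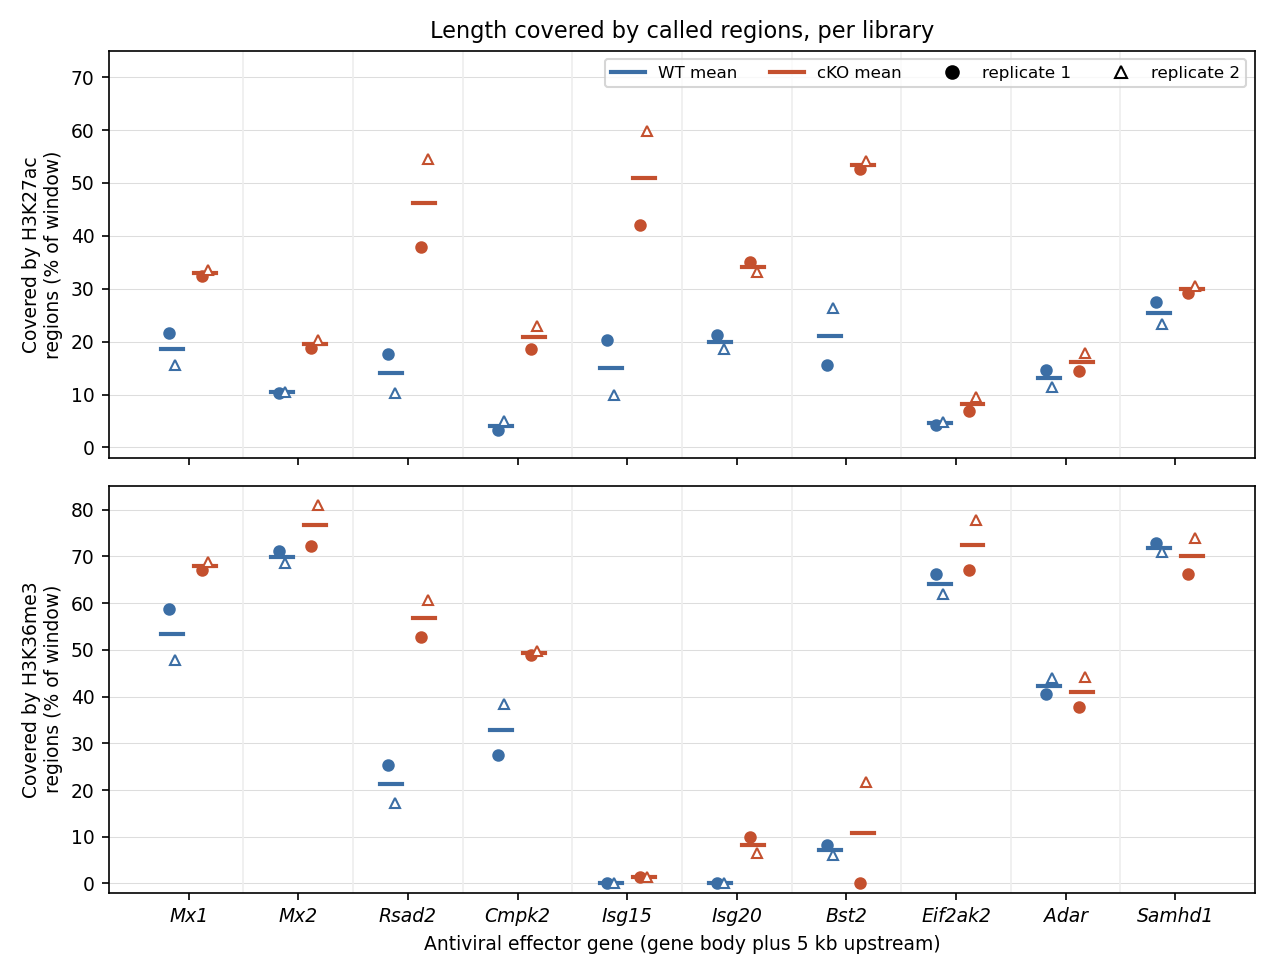
Percent of each gene's window (x axis) covered by H3K27ac regions (top) or H3K36me3 regions (bottom) in each library (y axis, percent), with WT in blue, cKO in red, filled circles for replicate 1, open triangles for replicate 2 and bars for the mean of 2. Both cKO points lie above both WT points at 9 genes for H3K27ac and at 7 for H3K36me3.

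Isg15 encodes a ubiquitin-like protein that is attached to viral and host proteins, and Isg20 an exonuclease that degrades single-stranded RNA. Isg15 (chromosome 4, 156199424 to 156200818, minus strand) is 1395 bp long. H3K27ac covered 20.3% and 9.96% of its window in WT and 42.0% and 59.9% in cKO (15.1% ± 7.29 and 50.9% ± 12.7), a difference of 35.8 points that was the greatest among the 10 genes for this mark. The region over the start was wider on both sides in cKO, with 1296 and 637 bp in WT and 2684 and 5727 bp in cKO. The cKO replicate 2 region ran from -2436 to 3290 bp and so took in the whole gene.

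Isg15 had no H3K36me3 region in WT and one in each cKO library, of 774 and 501 bp at its 3′ end. Only 82 bp of overlap with the window was shared by the cKO libraries, giving 1.28% and 1.42%, and the rest lay past the annotated end. Both H3.3-HA libraries called a region over this stretch. A listed 0 here means that no region passed the authors' threshold.

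At Isg20 (chromosome 7, 78913424 to 78920396, plus strand), H3K27ac covered 21.2% and 18.7% in WT and 35.0% and 33.2% in cKO (19.9% ± 1.77 and 34.1% ± 1.28). The start was inside a region in every library, 2538 and 2238 bp wide in WT and 2929 and 3970 bp in cKO. H3K36me3 was absent from the WT lists and covered 9.92% and 6.43% of the window in cKO. The regions that overlapped between the cKO libraries lay at the far upstream edge, on the side of the neighbouring gene Aen. They ran from -5074 to -4449 bp in replicate 1 and from -5027 to -4231 bp in replicate 2. Once bases of other protein-coding genes were left out, the cKO libraries no longer both exceeded WT. Inside the Isg20 body, cKO replicate 1 alone had an H3K36me3 region, 636 bp wide.

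Bst2 encodes tetherin, which holds budding virus at the cell surface. On chromosome 8 (71534255 to 71537456, minus strand), H3K27ac covered 15.6% and 26.4% of its window in WT and 52.6% and 54.2% in cKO (21.03% ± 7.63 and 53.4% ± 1.12), a 2.54-fold ratio. In WT the region upstream of the start stopped short of it, running from -1423 to -142 bp and from -1368 to -204 bp. In cKO it crossed the start and reached 1726 and 1908 bp into the gene, and so took in the ISRE letters printed above, which no WT region covered in full. H3K36me3 at Bst2 overlapped between the groups, with 8.16% and 6.11% in WT and 0 and 21.7% in cKO.

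Eif2ak2 encodes PKR, a kinase that halts translation when it binds double-stranded RNA. On chromosome 17 (78852564 to 78882573, minus strand) H3K27ac took up little of its long window, 4.29% and 4.78% in WT and 6.92% and 9.56% in cKO (4.53% ± 0.341 and 8.24% ± 1.87). The difference of 3.70 points was 2.38 without cKO replicate 2. Near the start, WT replicate 1 had no region within 1 kb, WT replicate 2 had one of 1171 bp, and the cKO libraries had 2421 and 3348 bp. The scattered regions deeper in the gene in WT, 3 in replicate 1 and 1 in replicate 2, were each 501 bp wide. They had no counterpart in cKO, and none overlapped a region of the other WT library.

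H3K36me3 covered 66.1% and 62.0% of the Eif2ak2 window in WT and 67.1% and 77.8% in cKO (64.1% ± 2.91 and 72.5% ± 7.54). The lower cKO value exceeded the higher WT value by about 1 point, and the difference of 8.41 points was 3.07 without cKO replicate 2.

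Adar encodes an enzyme that edits adenosine to inosine in double-stranded RNA, and Samhd1 an enzyme that removes deoxynucleotides needed for reverse transcription. Both keep the cell's own nucleic acids from being sensed, and both are mutated in Aicardi-Goutieres syndrome. Their H3K36me3 groups overlapped, and their mean H3K27ac cover differed by 3.14 and 4.41 points. The Adar difference was 1.499 without cKO replicate 2. Adar (chromosome 3, 89715022 to 89753446, plus strand) was the 1 gene whose H3K27ac groups overlapped, with 14.7% and 11.4% in WT and 14.5% and 17.8% in cKO (13.0% ± 2.28 and 16.2% ± 2.32).

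Adar has separate start sites for an interferon-inducible long form and a constitutive short form. No library had an H3K27ac region within 1 kb of its annotated first start. RefSeq places another start 15.7 kb further in, and all 4 libraries had a region over the GAS element beside it. That region began 14585 and 14849 bp past the first start in WT and 14997 and 14982 bp in cKO, and was 3021 and 4311 bp wide in WT and 5132 and 6359 bp in cKO. Adar H3K36me3 began 17.6 to 18.0 kb past the first start in every library and covered 40.6% and 44.0% in WT and 37.7% and 44.3% in cKO.

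At Samhd1 (chromosome 2, 157097533 to 157135265, minus strand), H3K27ac covered 27.5% and 23.4% in WT and 29.3% and 30.5% in cKO (25.5% ± 2.92 and 29.9% ± 0.862). This order was lost when the gene body alone was used or regions under 1 kb were left out, and the difference of 4.41 points was 2.35 without WT replicate 2. The start base lay in a region in both cKO libraries and in neither WT library, where the nearest region ended at -20 bp in replicate 2 and began at 794 bp in replicate 1. Samhd1 also held 2 intronic cKO-only regions, from 13753 to 14476 and 16504 to 17596 bp, the second with H3.3-HA in both libraries. H3K36me3 overlapped, with 72.8% and 70.9% in WT and 66.2% and 73.9% in cKO.

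**Figure D3:**
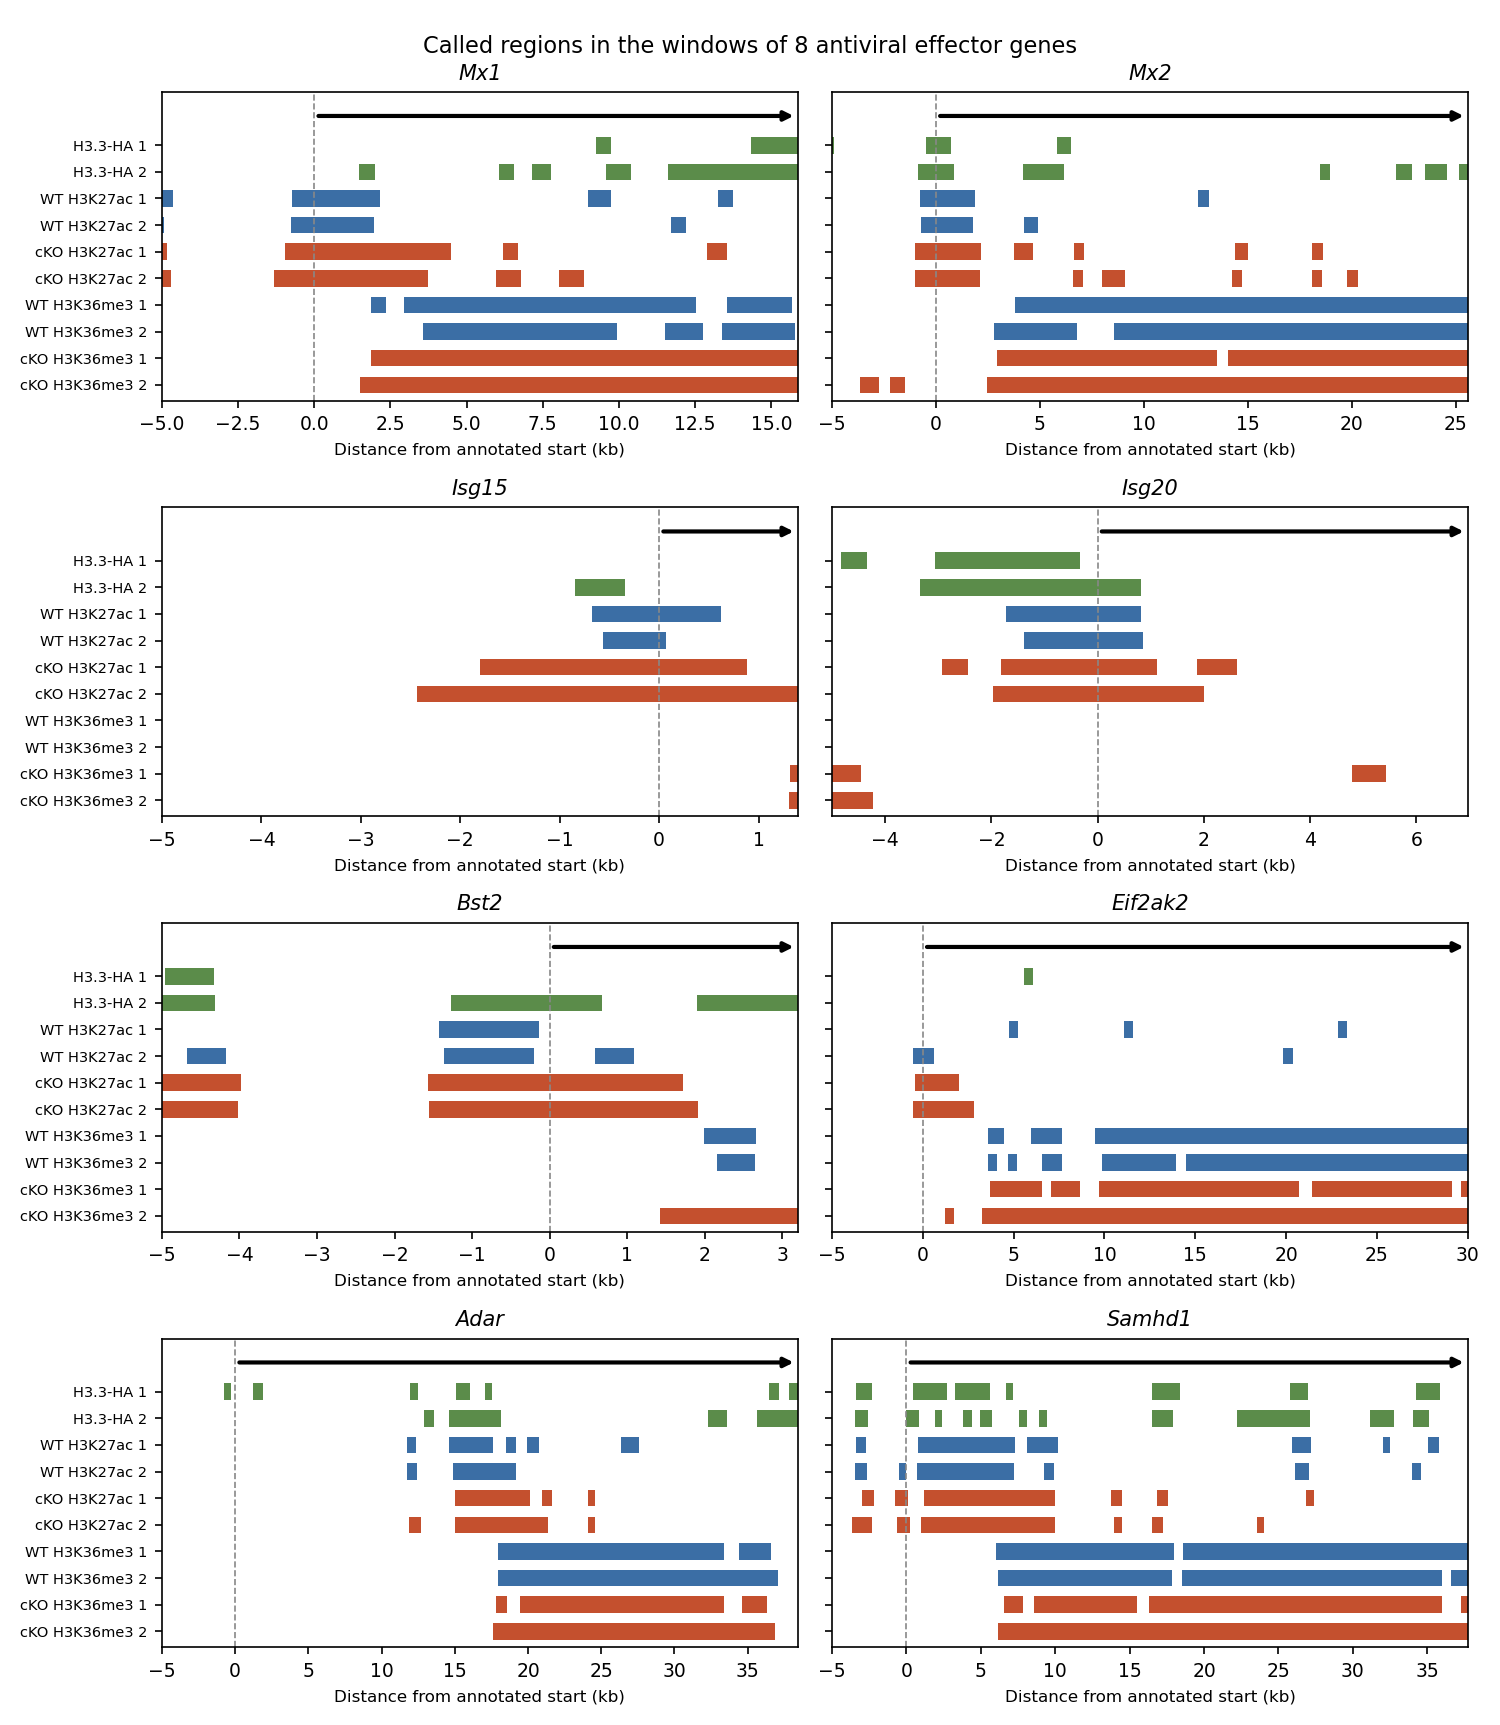
Regions called in each of the 10 libraries (rows) in the windows of 8 genes, with distance from the annotated start in kb on each x axis, the arrow marking the gene body and the dashed line its start (green H3.3-HA, blue WT, red cKO). The H3K27ac region at the start of Mx1, Isg15 and Bst2 is wider in cKO, while the H3K36me3 blocks of Adar and Samhd1 overlap between the genotypes. These blocks have gaps in some libraries of both genotypes. Each is 1 unbroken region in cKO replicate 2, and at Adar also in WT replicate 2.

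Across the 10 genes, the base at the annotated start was inside an H3K27ac region at 6 genes in each WT library and at 9 in each cKO library. At 2 kb past the start the counts were 2 and 1 in WT and 6 and 7 in cKO, and at 5 kb they were 3 and 2 against 2 and 2. The first of these points lies beyond the end of Isg15, and the second beyond the ends of Isg15 and Bst2. All these counts by position, that at the start included, have no share over all genes beside them and describe the 10 genes only. The summed width of the regions within 1 kb of the start was greater in both cKO libraries at 8 of the 10 genes, all but Adar and Samhd1, against 14.7% of all genes, and 8.32% of all genes showed the opposite order. This measure was added after the regions had been seen. Over the 10 windows, 18839 bp of H3K27ac were shared by the cKO libraries and absent from WT, and 1145 bp were shared by the WT libraries and absent from cKO. For H3K36me3 these sums were 10805 and 0 bp, beside 98146 bp called in all 4 libraries. Such sums were not made over all genes.

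**Figure D4:**
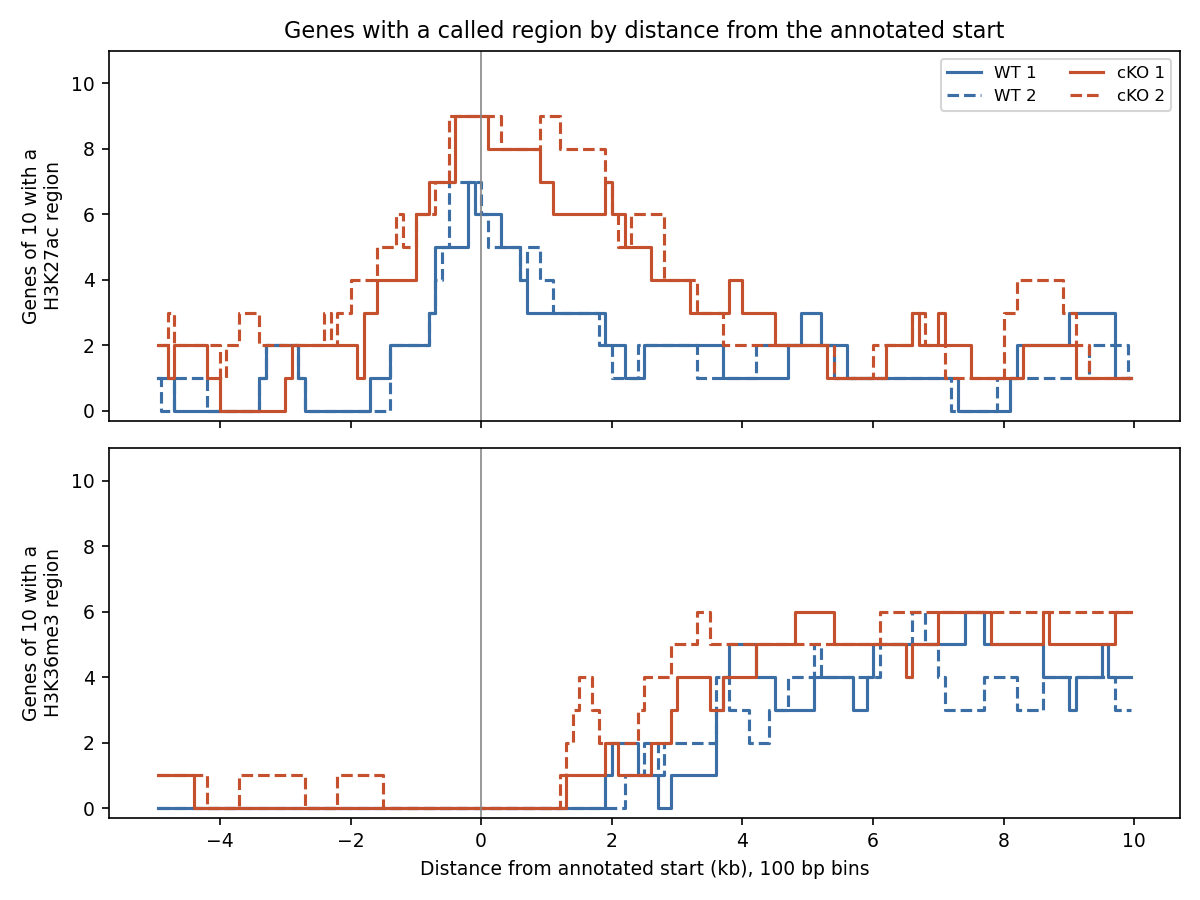
Number of the 10 genes (y axis) with an H3K27ac region (top) or H3K36me3 region (bottom) in each 100 bp bin, by distance from the annotated start in kb (x axis), for WT (blue) and cKO (red) with replicate 1 solid and replicate 2 dashed. The cKO H3K27ac lines stay above the WT lines from the start to the bin at 4150 bp past it. They also lie above in some upstream bins, such as that at -1350 bp. No library has an H3K36me3 region at the start of any of the 10 genes.

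A cKO-only region, found in the 2 cKO libraries and missing from both WT libraries, lay in the window of 5 genes for H3K27ac (Mx1, Mx2, Cmpk2, Adar and Samhd1), against 10.1% of all genes, or 9 genes when a library had to cover 50% of a merged region to hold it. A region was lost in the same sense in 0, against 21.7%. The 8 cKO-only regions were 506 to 1327 bp wide, and 7 were intronic. The count of lost regions was not stable: it was 5 without WT replicate 2, 3 without WT replicate 1, 2 without cKO replicate 2 and 1 without cKO replicate 1. For H3K36me3 such new regions lay at Isg15 and Isg20 only, against 4.62% of all genes, and none was lost, against 12.9%, or 1 (at Bst2) without cKO replicate 2.

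The median over the 10 genes of the difference in covered percent, cKO minus WT, was 14.2 points for H3K27ac, with a range of 3.14 to 35.8, and 7.46 points for H3K36me3, with a range of -1.81 to 35.4. Over all genes both medians were 0, and over genes with a region in both genotypes they were -1.46 and -6.18. The H3K36me3 result moved with the choice of cKO library. Without cKO replicate 1, all 10 genes were higher in cKO and the median was 12.4 points, and without cKO replicate 2, 7 were higher, Bst2, Adar and Samhd1 were lower, and the median was 2.71.

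H3.3-HA regions were present in both libraries at 8 of the 10 windows, all but Isg15 and Eif2ak2, against 44.2% of all genes. Replicate 2 covered more of the window than replicate 1 at 9 of the 10, from 7.83% at Isg15 to 47.9% at Bst2, and the exception was Eif2ak2, with 1.43% and 0. Values in replicate 1 ran from 0 at Isg15 to 27.1% at Isg20. Isg20 and Samhd1 had the highest values in replicate 1 (27.1% and 26.0%), and in replicate 2 Bst2, Isg20, Mx1 and Samhd1 had 47.9%, 34.7%, 32.2% and 32.1%.

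The position of H3.3-HA differed from gene to gene. Within 1 kb of the start, both libraries had a region at Mx2, Isg20 and Samhd1, and within 1 kb of the annotated end at Mx1, Isg15, Bst2 and Adar. Shares of all genes with such regions were not computed. Inside the windows, at Mx1 and Rsad2 all bases called in both libraries lay past the middle of the gene body, 1707 and 1059 bp. In the windows of Cmpk2, Isg20 and Bst2 they all lay upstream of the start, since the Bst2 stretch near the end in replicate 1 was past the window, and at Isg20 they filled 54.8% of the 5 kb upstream. Adar had them both near its inner start and at its end.

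Of the 17755 bp called for H3.3-HA in both libraries over the 10 windows, 7163 bp were also in H3K27ac regions of both WT libraries and 5573 bp in H3K36me3 regions of both WT libraries. In H3K27ac the cKO-only bases of these genes held 1504 bp of it, of which 666 bp lay upstream of Cmpk2 and 461 bp in Samhd1. The tagged mice and the WT mice are different genotypes, so these overlaps compare lists and not single cells.

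Other genes of the same pathway were described by lists, whose counts stand beside shares of 10.1% higher and 22.3% lower over all genes for H3K27ac and 4.29% and 20.6% for H3K36me3. Among genes with a region in both genotypes these shares were 16.4% and 40.9%, and 7.44% and 39.0%. With 5 to 8 genes a list, the counts were not tested against them. Of 7 genes of the interferon receptor and ISGF3, 4 had more H3K27ac cover in both cKO libraries and 1 had less. Jak1 was 29.6% and 30.5% in WT and 8.97% and 11.65% in cKO. For H3K36me3 0 of the 7 were higher and 2 were lower, Irf9 by a mean of -36.9 points and Ifnar1 by -2.01 points.

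Of 5 genes of the ISG15 conjugation machinery, 2 had more H3K27ac (Usp18, which removes ISG15, by 10.0 points, and the conjugating enzyme Ube2l6 by 8.62) and 3 more H3K36me3, among them Usp18 by 33.2 points and the ligase Herc6 by 18.6 points. None of the 5 was lower for either mark. Of 8 double-stranded RNA sensing genes, 4 had more H3K27ac and 2 less, and 3 had more H3K36me3 and 0 less. Zbp1, a sensor of Z-form nucleic acid, differed by 14.9 points in H3K27ac and 43.9 points in H3K36me3, Oas1a by 10.1 points in H3K27ac and Oas3 by 31.2 points in H3K36me3.

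Of 8 other restriction factors, 4 had more H3K27ac and 1 less, and 3 had more H3K36me3 and 1 less. The differences were 34.7 points for Ifit3 and 19.1 for Ifit1 in H3K27ac, and 31.5 for Ifit1 and 13.8 for Ifit2 in H3K36me3. Of 5 other genes mutated in Aicardi-Goutieres syndrome, 0 had more H3K27ac and 2 had less, the exonuclease gene Trex1 by -5.94 points and Rnaseh2b by -3.66 points, and for H3K36me3 all 5 overlapped. Those 2 of 5 are about the share, 40.9%, found lower among all genes with H3K27ac regions in both genotypes. The list medians were 5.25, 3.90, 3.57, 6.53 and -3.66 points for H3K27ac and -2.01, 6.81, 4.54, 5.06 and 2.29 points for H3K36me3 in the order given, beside 14.2 and 7.46 for the 10 effector genes. Whether the lists differ from one another was not tested.

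**Figure D5:**
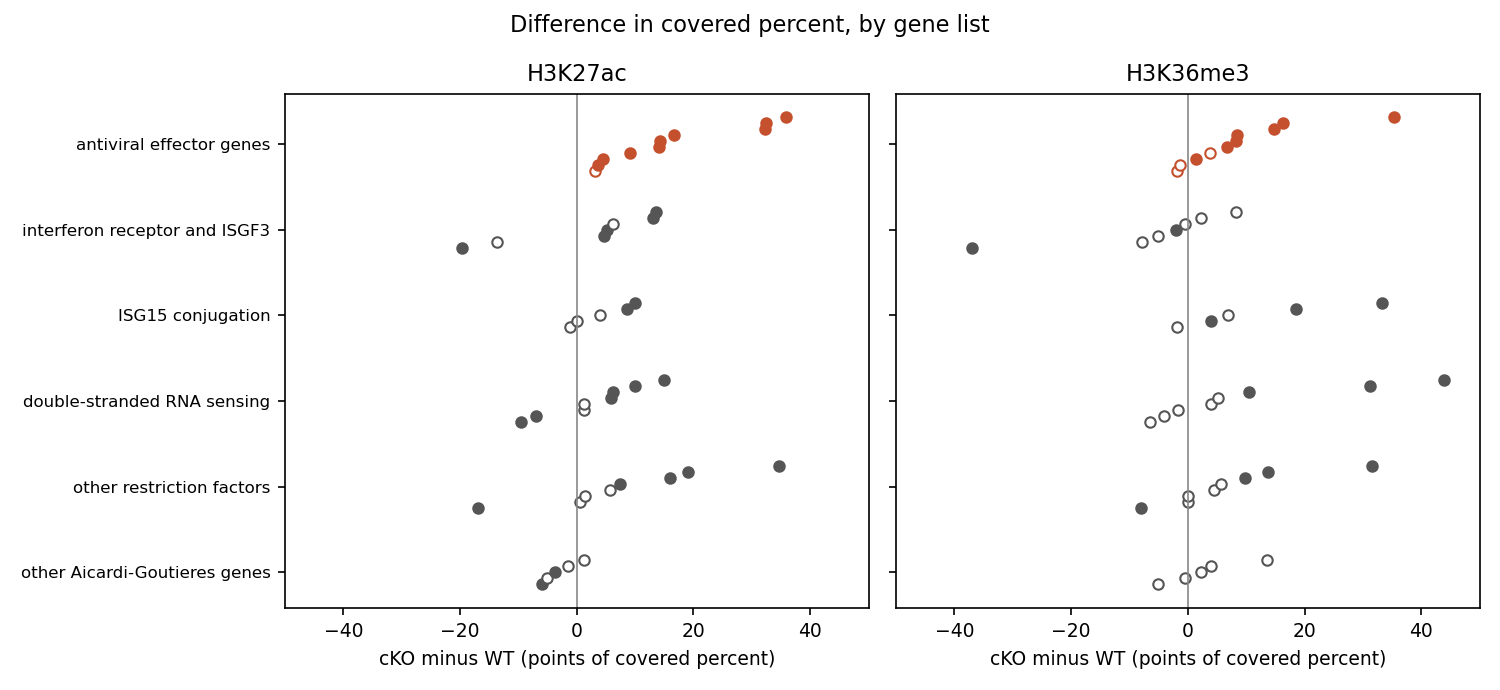
Difference in mean covered percent, cKO minus WT in points (x axis), for each gene of the effector list (red) and of 5 other lists (grey), for H3K27ac (left) and H3K36me3 (right), with filled points where the WT and cKO libraries do not overlap and open points where they do. For H3K27ac all 10 effector genes lie to the right of 0, from 3.14 to 35.8 points, and the other lists hold genes on both sides. In the ISG15 conjugation list those left of 0, Herc6 (-0.0451 points) and Trim25 (-1.22), had overlapping groups, as did Adar.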

How the data were processed

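CUT&RUN libraries of BMDMs were analysed from lists of called regions. Per the labels and methods of the study, the authors trimmed reads with cutadapt, aligned them to mm10 with Bowtie2 in its local mode, and called regions in each library separately with HOMER. The versions of cutadapt and HOMER are not given in the sources used here. Per the file headers, calls used peaks of 500 bp at least 1000 bp apart, a Poisson p-value of 1e-03, 4-fold enrichment over IgG with p 1e-04, and p 1e-04 over the local 10000 bp. The control directory differed between genotypes, so a genotype difference includes any difference between controls. The score column the authors deposited is 1 in every row and carries no signal, so positions (1-based) alone were used and signal depth per region is unknown.

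Regions of a library were intersected with gene windows (GENCODE M21, 21938 protein-coding records plus Mx2), and gene starts are the annotated gene ends on the 5′ side. Genes were called higher when both cKO libraries exceeded both WT libraries in covered percent, and lower in the opposite case. For new and lost regions the 4 lists of a mark were merged, and a library held a merged region if it overlapped by at least 1 bp. Single values were compared with two-sided exact permutation tests, which relabel the 4 libraries of a mark. Their p is 0.333 for any gene whose groups do not overlap, whatever the spread between its 2 labelled replicates. The 10 genes, the pathway lists and the marker lists were chosen with earlier results of these data known. Named list genes were at most 2 per list and mark, with the greatest absolute difference among genes whose groups did not overlap. One gene that this rule names is not reported here. Python 3.11.15 and numpy 2.4.6 were used, and the code was tested on simulated lists. The alternatives changed the window, the minimum width, the number of regions, the overlap rule, neighbouring genes, the replicates and the pairing. The study's test of read counts per region was not used here.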

Additional observations from a re-analysis of the deposited data

How the results depend on the processing

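H3K27ac was higher in cKO at 8 to 10 of the 10 genes and lower at 0 under every window, width, number, neighbour and leave-one-out alternative, and H3K36me3 at 5 to 10, except in the promoter window (1 kb on either side of the start), where it was 0 because no library had a region there; its median difference there was 0. The H3K27ac median was 10.7 points with 5 kb on both sides, 32.0 in the promoter window and 10.2 without regions under 1 kb, against 14.2. Leaving out a library gave 12.1 to 15.6 points for H3K27ac and 2.71 to 12.4 for H3K36me3, and 7 to 10 higher and 0 to 3 lower genes for H3K36me3. Genes with a region only in cKO numbered 5 for H3K27ac, 1 in the promoter window, 2 without regions under 1 kb, 9 when a library had to cover at least 50% of the merged region, and 5 to 7 with a library left out. With the 50% rule 1 gene (Samhd1) had a lost region, and 1 to 5 with a library left out. For H3K36me3 these genes numbered 2, but 1 in gene bodies alone, 0 in the promoter window, 0 without regions under 1 kb, 1 outside other protein-coding genes and 2 to 4 with a library left out, and lost regions 0 to 1. H3.3-HA lay in both libraries at 8 genes, at 10 with 5 kb on both sides, 6 without regions under 1 kb, 5 in gene bodies alone and 3 in the promoter window. Pairing by replicate number could not be checked, as each mark had only 2 same-numbered pairs. Deviations of same-numbered libraries correlated across 21939 genes at -0.178 for H3K27ac and 0.188 for H3K36me3. With a replicate block, 9 genes were higher for H3K27ac and 7 for H3K36me3, the median differences were 14.2 and 7.46 points, and 8 start regions were wider, each as without it. A higher call needs both cKO libraries above both WT libraries. Counts of higher genes therefore could not fall under a block, crossed numbers or a left-out library, and a block could not change the median differences. These alternatives do not test the higher calls. Crossing the H3K27ac numbers, a choice made after seeing the data, gave 10 higher and 0 lower. No difference of a single gene whose groups did not overlap changed sign under any alternative, which was fixed in advance for pairing and left-out libraries. Of the values per gene, 26 for H3K27ac and 21 for H3K36me3 moved by more than 1 SD. Called lengths depend on depth and on the threshold, and a region missed in a library can differ little in signal.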
